A study of Mus musculus with 6 samples.

Results

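The genes described are 38 lysosomal genes of the mouse: 12 peptidases, 10 glycosidases, 4 sulfatases, 6 lipid hydrolases or their activators, 5 membrane proteins and Tfeb, which encodes a transcription factor of lysosomal genes. They are grouped here by function, and each was read from the probe set that names it alone in the platform annotation, taking the brightest where there were several. Of the 38 genes, 37 were measured in this way, out of 18193 genes on the array, and Cd63 was not analysed here. The samples were whole uteri of pregnant females at 3.5 days post coitum (dpc), hybridised to Affymetrix expression arrays, with 3 arrays for Arid1a f/f and 3 for Arid1a d/d. Both genotypes carry floxed alleles of Arid1a, the gene of a DNA-binding subunit of the SWI/SNF chromatin remodelling complex. Arid1a d/d females also carry Pgr cre/+, a Cre recombinase expressed from the progesterone receptor locus, so the deletion is limited to cells that express Pgr, and Arid1a stays intact in the rest of the tissue. The genotypes therefore differ at the Pgr locus as well, and no array held Cre without floxed alleles. By the study's methods, females of each genotype were mated with C57BL/6 males, and the age of those used for the arrays is not given with the array or tissue collection methods.

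Lysosomes are acidic compartments in which hydrolases break down proteins, glycans, sulfated sugars and lipids brought in by endocytosis, phagocytosis and autophagy. Most of these enzymes are tagged with mannose 6-phosphate in the Golgi and carried to the lysosome by receptors, while membrane proteins such as LAMP1 and LAMP2 line its wall, and a proton pump, the V-ATPase, keeps it acidic. TFEB and its relatives bind a short E-box in the promoters of many of these genes. In the uterus, macrophages are known for their many lysosomes.

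Most lysosomal genes read lower in Arid1a d/d uteri, and the genes that passed the test were all lower. At an adjusted p under 0.05 (limma, Benjamini-Hochberg over all probe sets), 7 of the 37 measured genes were lower, which is 18.9%, against 4.06% of all genes. None was higher, against 3.37% of all genes. The 7 were Lipa, Lgmn, Scarb2, Arsa, Gm2a, Psap and Smpd1, and 4 of them belong to lipid breakdown. The log2 fold change (Arid1a d/d minus Arid1a f/f) was below 0 in 30 of the 37 genes, or 81.1%, compared with 53.5% of all genes. Its median was -0.30, from -1.50 for Lipa to 0.53 for Neu1, and the median over all genes was -0.0184. In 20 of the 37 genes every d/d array lay below every f/f array, which is 54.1% against 16% of all genes, and in 3 every d/d array lay above, which is 8.11% against 13.4%. At an unadjusted limma p under 0.05 there were 20 genes lower and 3 higher, and over all genes these shares were 13.5% and 11.4%. The number of calls depended on single arrays: it was 2 without f/f 2, 3 without f/f 1, f/f 3 or d/d 2, 4 without d/d 3 and 6 without d/d 1, and only Lipa and Scarb2 were called in all 6 of these fits. Over all 18193 genes the number called lower, 738 with every array, fell as well. It was 245 without f/f 2, 401 without f/f 1, 278 without f/f 3, 388 without d/d 2, 431 without d/d 3 and 615 without d/d 1. The labels do not say whether the arrays of a genotype came from separate mice, so p-values cover only the spread among these samples, which may be technical.

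**Figure D1:**
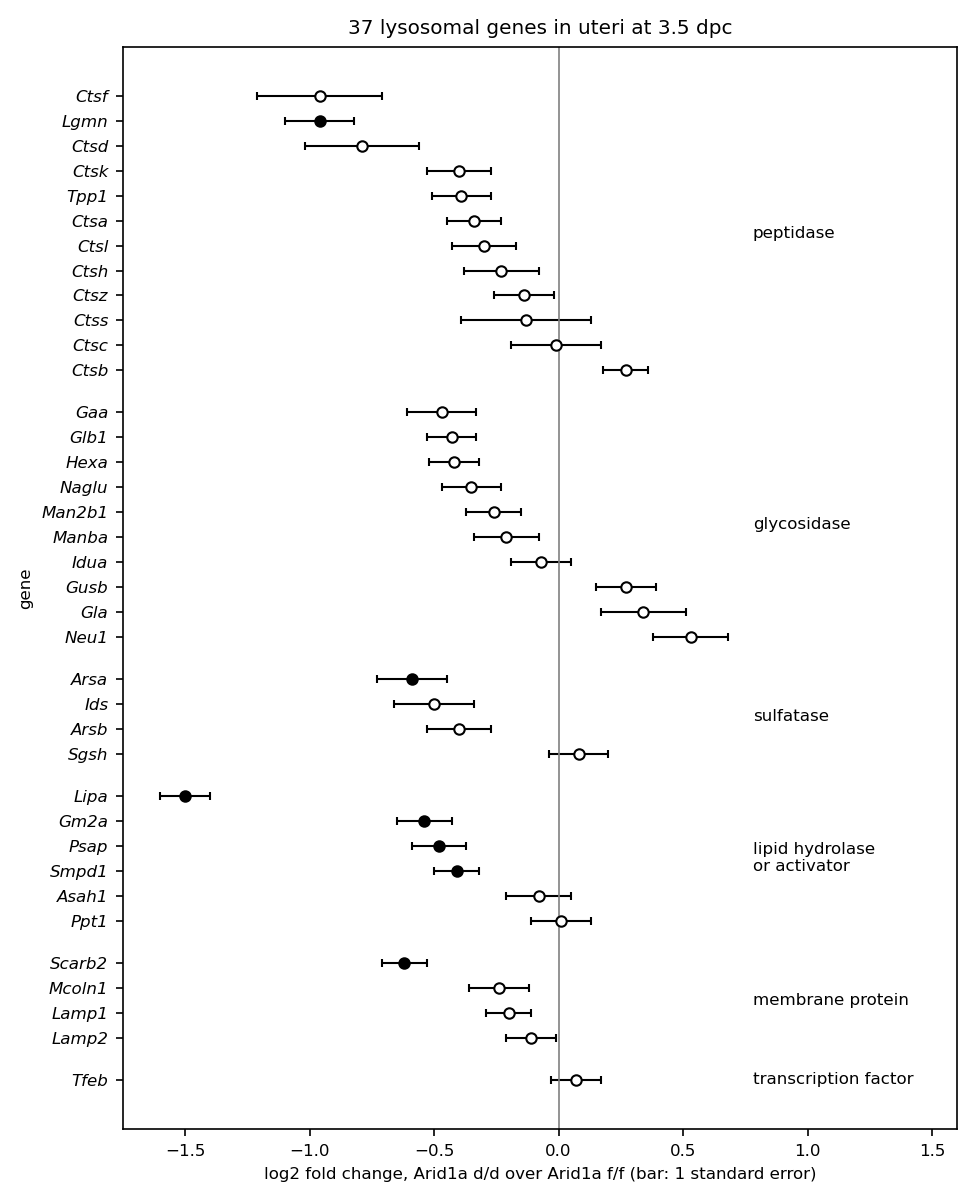
Log2 fold change (x axis, Arid1a d/d over Arid1a f/f, bars 1 standard error, n = 3 arrays per genotype) of each of the 37 measured lysosomal genes (y axis, grouped by role). Filled circles mark the 7 genes past the test, all lower in d/d, and Lipa lies farthest to the left at -1.50.

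The deleted gene was measured first as a check of the labels. Arid1a read 83.58, 86.85 and 103.9 on the f/f arrays and 51.9, 51.91 and 58.15 on the d/d arrays (linear intensity), a log2 fold change of -0.76 (SE 0.12, adjusted p = 0.012 by limma). Its other probe set gave -0.61 (adjusted p = 0.0132). The position of these probes with respect to the floxed segment is unknown here.

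For the 4 lower genes with the largest changes, and for Lamp1, the promoter is shown to set the measured change beside the sequence. Each line gives the 150 bases before the RefSeq transcription start (GRCm38.p6), in the direction of the gene, with the E-box core CACGTG in capitals. This core is the centre of the element that TFEB binds, and it reads the same on both strands.
Lipa, chr19:34527475-34527624, minus strand: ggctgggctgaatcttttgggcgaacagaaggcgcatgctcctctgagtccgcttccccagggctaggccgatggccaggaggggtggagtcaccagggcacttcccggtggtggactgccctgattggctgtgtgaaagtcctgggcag
Lgmn, chr12:102439729-102439878, minus strand: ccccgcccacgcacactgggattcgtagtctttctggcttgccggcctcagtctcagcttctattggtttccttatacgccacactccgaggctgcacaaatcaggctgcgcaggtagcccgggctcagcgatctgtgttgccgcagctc
Scarb2, chr5:92505658-92505807, minus strand: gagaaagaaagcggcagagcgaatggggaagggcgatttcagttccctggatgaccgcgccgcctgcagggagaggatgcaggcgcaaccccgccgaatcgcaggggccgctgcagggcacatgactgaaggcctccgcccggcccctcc
Arsa, chr15:89477425-89477574, minus strand: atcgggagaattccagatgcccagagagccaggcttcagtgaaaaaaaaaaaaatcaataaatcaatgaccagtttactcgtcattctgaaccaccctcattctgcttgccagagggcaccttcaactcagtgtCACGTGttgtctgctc
Lamp1, chr8:13159011-13159160, plus strand: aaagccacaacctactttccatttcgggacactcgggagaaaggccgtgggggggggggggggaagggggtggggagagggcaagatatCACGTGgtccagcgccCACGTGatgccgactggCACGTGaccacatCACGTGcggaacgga
Lamp1 held 4 copies of the core, 61, 45, 28 and 15 bases before its start, and Arsa held 1, at 16 bases before. Lipa, Lgmn and Scarb2 held none in these stretches. Lgmn has another start farther inside the gene, and there a core lay 49 bases before it. The windows searched were 300 bases long, from 250 before to 50 after the start, and 35 of the 38 genes had one, the exceptions being Ctsb, Ctsh and Asah1. The core was found in 13 of these 35 genes, or 37.1%, compared with 10.2% of the 14452 array genes that had a window. The longer form TCACGTG, searched on both strands and always overlapping the core, was found in 11 of 35 (31.4%), compared with 5.8%.

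The core stood in genes that passed the test and in genes that did not. It was present in 2 of the 7 lower genes and in 11 of the 27 measured genes with a window that did not pass the test. The median log2 fold change was -0.35 over the 13 measured genes with a core (-0.96 to 0.34) and -0.26 over the 21 without (-1.50 to 0.53). Gla, with cores 227 and 194 bases before its start, had a value of 0.34, while Ctsd, with cores at 245 and 98 bases, had -0.79. Among genes with a window, the core also stood in 7 of 14 genes of delivery to lysosomes and 4 of 11 V-ATPase subunits. The median log2 fold changes of these lists were -0.0851 and 0.00755. The core stood in 2 of 17 further lysosomal enzymes and carriers (median -0.25) and 3 of 12 autophagy genes (-0.28). The counts were 3 of 13 for TFEB relatives and nutrient-sensing genes (-0.0173) and 0 of 3 for cathepsin inhibitors (-0.16). In these lists the counts cover genes with a window, measured or not, and the medians cover measured genes, with or without a window. Whether these shares differ was not tested. These matches describe letters in a window and do not show binding.

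Lipid breakdown held the largest single change and most of the calls, with 4 of 6 genes lower. Over all genes 4.06% were lower, and the counts by role, here and below, were not tested against that share. Lipa encodes lysosomal acid lipase, which frees cholesterol and fatty acids from esters taken up in lipoproteins. Its intensity was 58.85, 53.46 and 57.98 on the f/f arrays and 21.55, 18.65 and 20.2 on the d/d arrays. The genotypes were far apart and the arrays within each close together: the means were 56.8 ± 2.89 (SD, n = 3) in f/f and 20.1 ± 1.45 (SD, n = 3) in d/d, a ratio of 2.82 and a log2 fold change of -1.50 (SE 0.10, adjusted p = 0.000778, limma). Both dimmer probe sets of Lipa pointed the same way, at -1.01, which passed the test, and at -0.59, which did not. The brightest probe set of Lipa, like those read for Psap and Smpd1, is of a kind that may match more than 1 transcript. Without such probe sets Lipa had -1.01 (adjusted p = 0.00816, limma), and with its probe sets averaged -1.03 (adjusted p = 0.00389, limma). Gm2a and Psap encode activator proteins that present sphingolipids to the hydrolases. Gm2a read 177.61, 156.3 and 168.24 in f/f against 130.21, 111.87 and 104.66 in d/d (log2 fold change -0.54, SE 0.11, adjusted p = 0.0341), and its other probe sets gave -0.40 and -0.47. Psap, the precursor of the saposins, read 505.05, 557.59 and 575.48 against 412.46, 353.54 and 407.96 (-0.48, SE 0.11, adjusted p = 0.0409). Smpd1, acid sphingomyelinase, read 71.87, 70.07 and 64.81 against 51.19, 52.38 and 51.68 (-0.41, SE 0.09, adjusted p = 0.0428). None of these 3 genes overlapped between genotypes, yet each lost its call in at least 5 of the 6 fits that left out an array. When the probe sets of a gene were averaged, Gm2a (-0.47, adjusted p = 0.0523) and Smpd1 (-0.26, adjusted p = 0.0986) also missed the threshold. The remaining lipid genes did not pass: Asah1, acid ceramidase, had a log2 fold change of -0.08 (95% interval -0.37 to 0.22), and Ppt1, which removes palmitate from proteins, had 0.01 (-0.28 to 0.29).

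**Figure D2:**
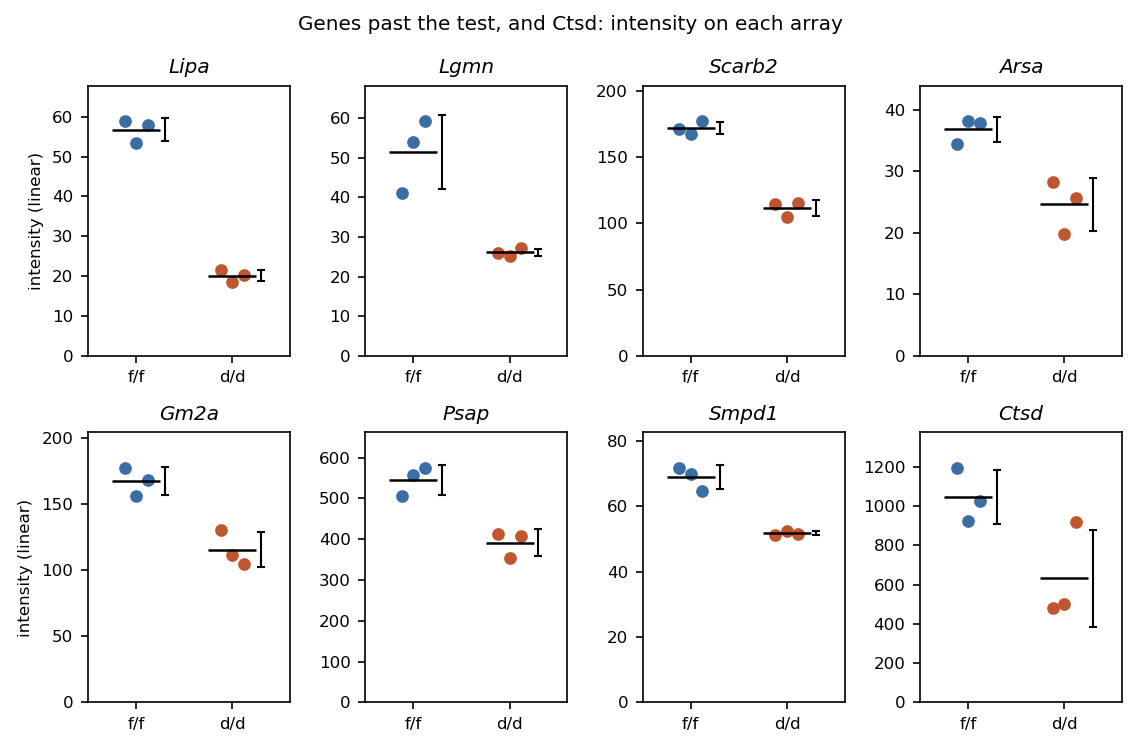
Linear intensity (y axis, starting at 0) on each of the 3 Arid1a f/f arrays (blue) and 3 Arid1a d/d arrays (orange) for the 7 genes past the test and Ctsd; lines are means and bars 1 SD. No d/d array reaches an f/f array in any panel, and in the panel of Ctsd the array d/d 3 lies near the f/f values at 917.75.

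Among the 12 peptidases 1 gene passed the test, and 11 had a log2 fold change below 0. Lgmn encodes legumain, an asparaginyl endopeptidase that also matures several cathepsins. It read 41.03, 54.04 and 59.19 in f/f and 25.97, 25.2 and 27.13 in d/d, with the f/f arrays spread widely and the d/d arrays close together. The log2 fold change was -0.96 (SE 0.14, adjusted p = 0.00997, limma), and without f/f 2 it was -0.92 with an adjusted p of 0.0526. Ctsf, a cysteine cathepsin, had the same log2 fold change of -0.96 but a larger error (SE 0.25, adjusted p = 0.0669), from 22.52, 30.7 and 23.04 in f/f and 16.78, 8.42 and 15.28 in d/d. The second probe set of Ctsf gave -0.07, at means of only 2.49 in f/f and 2.38 in d/d. Ctsd, the main aspartyl protease of the lysosome, read 1194.96, 922.71 and 1025.36 in f/f and 480.48, 500.39 and 917.75 in d/d. Here d/d 3 stood close to the f/f arrays: the log2 fold change was -0.79 (SE 0.23, adjusted p = 0.104), and without d/d 3 it was -1.09 (adjusted p = 0.0126). Without d/d 1, Ctsk, a collagen-degrading cathepsin, reached an adjusted p of 0.0462 (-0.54), compared with -0.40 and 0.138 over all arrays. The other members with values below 0 ranged from -0.01 for Ctsc to -0.39 for Tpp1, with Ctsa at -0.34, Ctsl at -0.30, Ctsh at -0.23, Ctsz at -0.14 and Ctss at -0.13.

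Ctsb was the exception among the peptidases. This abundant cysteine cathepsin read 537.04, 536.17 and 542.04 in f/f and 621.54, 631.79 and 693.36 in d/d, so that every d/d array lay above every f/f array. Its log2 fold change of 0.27 (SE 0.09, 95% interval 0.05 to 0.48) had an adjusted p of 0.164, and 0.0488 when the variance model used a trend and a robust fit. The probe sets of Ctsb disagreed, 4 of 5 being above 0 and 1 at -0.37.

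No glycosidase passed the test, although 7 of 10 had values below 0 and the median was -0.23. Gaa, the acid alpha-glucosidase that degrades glycogen, had the lowest value at -0.47 (SE 0.14, adjusted p = 0.105), from 89.22, 105.1 and 91.68 in f/f and 79.81, 56.56 and 71.27 in d/d. Its second probe set gave -0.42. Glb1, the lysosomal beta-galactosidase, had -0.43 (adjusted p = 0.0525), and Hexa, the alpha subunit of beta-hexosaminidase, had -0.42 (adjusted p = 0.0559). Both lay just outside the threshold, with no overlap between genotypes, and both passed it after quantile normalization (0.0468 and 0.0373). Both also passed in the fit on averaged probe sets (0.0302 and 0.0324). Each has only 1 probe set, so nothing was averaged for these genes. Their log2 fold changes were unchanged there, and only the test around them differed. Naglu, Man2b1, Manba and Idua ranged from -0.35 to -0.07. The values above 0 were those of Neu1, Gla and Gusb. Neu1, the sialidase, read 4.36, 4.91 and 5.89 in f/f and 6.25, 8.31 and 7.29 in d/d (0.53, SE 0.15, adjusted p = 0.0835), whereas its dimmer probe sets gave 0.08 and -0.01. Those dimmer probe sets had group means of 2.74 or less, below the median of all intensities. Gusb, beta-glucuronidase, had 0.27 (adjusted p = 0.257). Gla, alpha-galactosidase A, had 0.34 (adjusted p = 0.333) and was the only measured gene of the 37 with a group mean below the median of all intensities, 3.12: its mean was 2.90 in f/f and 3.61 in d/d.

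Of the 4 sulfatases, Arsa passed the test. It encodes arylsulfatase A, which removes sulfate from sulfatide in cooperation with a saposin made from Psap. The values were 34.42, 38.12 and 37.78 in f/f and 28.32, 19.88 and 25.66 in d/d, a log2 fold change of -0.59 (SE 0.14, adjusted p = 0.0484, limma). The call stood close to the threshold and was kept in 1 of the 6 fits that left out an array. Ids, which acts on heparan and dermatan sulfate, read 80.43, 80.71 and 101.49 in f/f and 75.37, 51.25 and 60.54 in d/d (-0.50, SE 0.16, adjusted p = 0.126), but its 5 dimmer probe sets lay between -0.10 and 0.21. The group means of these 5 were 3.96 or less. Arsb, which acts on dermatan and chondroitin sulfate, had -0.40 (adjusted p = 0.137), and its dimmer probe sets gave 0.17 and -0.05, at group means of 2.69 or less. Sgsh, heparan N-sulfatase, had 0.08 (95% interval -0.19 to 0.35).

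Of the 4 measured membrane proteins 1 passed the test, and all had values below 0. Scarb2 encodes LIMP-2, a membrane protein of late endosomes and lysosomes. It read 171.57, 167.5 and 177.17 in f/f and 114.82, 104.58 and 115.72 in d/d, 2 tight groups with a ratio of 1.54, a log2 fold change of -0.62 (SE 0.09, adjusted p = 0.0118, limma). Its second probe set gave -0.60 and did not pass. Lamp1, whose promoter holds 4 cores, read 393.54, 378.25 and 396.36 in f/f and 331.54, 336.78 and 347.36 in d/d: the groups did not overlap, and the log2 fold change of -0.20 (SE 0.09, 95% interval -0.41 to 0.00) had an adjusted p of 0.278. Lamp2 had -0.11 (-0.33 to 0.12) and Mcoln1, the calcium channel TRPML1, had -0.24 (-0.53 to 0.04, adjusted p = 0.352). Whether Scarb2 changed more than Lamp1 or Lamp2 was not tested. Tfeb itself read 7.7, 7.57 and 8.6 in f/f and 8.14, 8.14 and 8.68 in d/d, with overlapping groups and a log2 fold change of 0.07 (95% interval -0.16 to 0.29).

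Other genes of the pathway were read from the same fit. Over all genes, 4.06% were lower and 3.37% higher, and whether the count in any of these lists exceeded those shares was not tested. Among 22 further lysosomal enzymes and carriers 2 were lower and none higher, with a median of -0.25 (-0.13 without d/d 2): Ctso, a cysteine cathepsin (-0.78, adjusted p = 0.0315), and Slc17a5, the sialic acid exporter sialin (-0.44, adjusted p = 0.0343). Autophagy genes had a median of -0.28 (-0.12 with the probe sets of a gene averaged), with 3 of 15 lower, namely the LC3-like genes Gabarapl1 (-0.60, adjusted p = 0.0372) and Gabarap (-0.41, adjusted p = 0.0399), and Wipi1 (-0.44, adjusted p = 0.0463). The proton pump had a median near 0. It was 0.00755 over 16 subunits of the V-ATPase, and 1 was higher: Atp6v1a, the catalytic subunit, read 68.65, 66.01 and 78.65 in f/f and 94.39, 120.04 and 116.37 in d/d (0.63, adjusted p = 0.0286). Among 19 genes of delivery to lysosomes (median -0.0851), Gnptab, the enzyme that starts the mannose 6-phosphate tag, was higher (0.50, adjusted p = 0.0277) and Vps39, a subunit of a tethering complex, was lower (-0.44, adjusted p = 0.0452). None of 14 TFEB relatives and nutrient-sensing genes passed (1 lower at an unadjusted limma p under 0.05, none by the methods' t-test after adjustment), the largest values being -0.56 for Rragd and -0.24 for Tfe3. None of 4 cathepsin inhibitors passed either (1 lower at an unadjusted limma p under 0.05, none by the methods' t-test after adjustment), with Cst3, cystatin C, at -0.44 and Cst9 at -0.25. When an array was left out, the calls of Ctso, Wipi1 and Atp6v1a were kept only without d/d 1, that of Gnptab only without d/d 3, and those of the other 4 genes in no such fit. With the probe sets of a gene averaged, Ctso (-0.34, adjusted p = 0.0754), Wipi1 (-0.21, 0.252), Gnptab (0.17, 0.238) and Vps39 (-0.23, 0.175) missed the threshold.

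**Figure D3:**
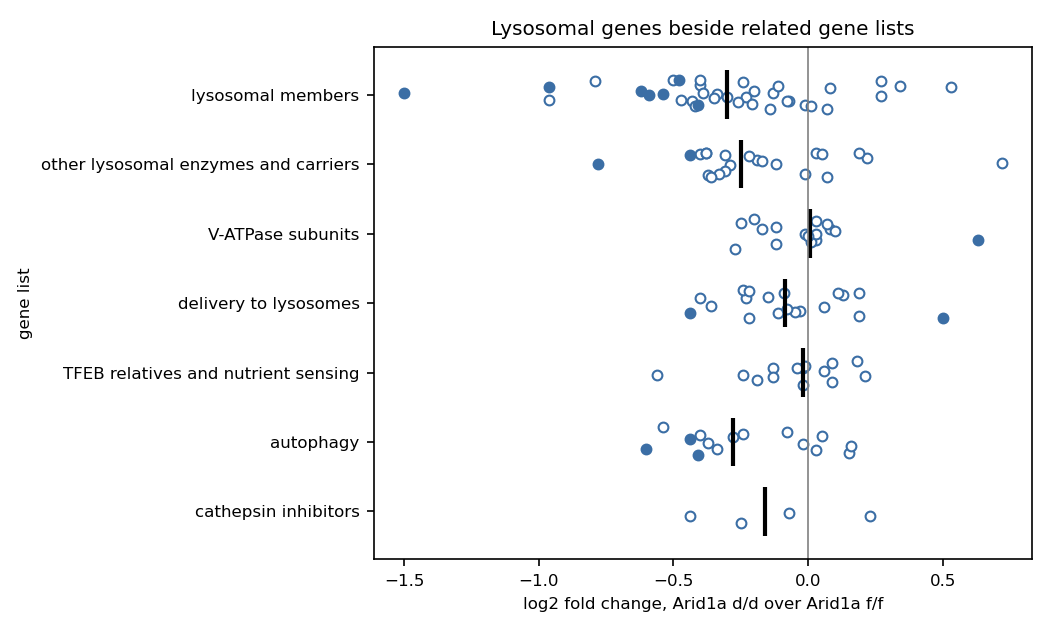
Log2 fold change (x axis, Arid1a d/d over Arid1a f/f) of each gene in the lysosomal genes described and in 6 related lists (y axis, vertical position within a list is arbitrary); filled circles passed the test and black lines are medians. The medians of the lysosomal, further lysosomal and autophagy lists lie at -0.30, -0.25 and -0.28, and that of the V-ATPase lies at 0.00755.

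Markers of cell types moved alongside these genes. In bulk tissue, fewer cells of a type and less RNA per cell cannot be told apart. The counts of calls were not tested against the shares over all genes, 4.06% lower and 3.37% higher. Endothelial markers were lower in 9 of 10 (median -1.11), led by Vwf at -1.46, Cdh5 at -1.45, Pecam1 at -1.33 and Esam at -1.32, and their summed intensity was 543 to 558 in f/f and 238 to 289 in d/d. The count of endothelial calls was 5 without f/f 2 or f/f 3 and 6 to 7 without any other array. Stromal markers had a median of -0.32 and 1 of 11 lower (Dcn, -1.06), with sums of 7891 to 8792 and 5824 to 7002. Epithelial markers had a median of 0.59 and 2 of 11 higher (Wnt7a, 1.07, and Cdh1, 0.92), with sums of 1079 to 1150 and 1114 to 2043. Gland markers were below 0 in 5 of 5, with 1 lower (Cxcl15, -2.55) and sums of 52.9 to 365 and 18 to 21.5. The sum of 365 was that of f/f 2, where Prss28 read 111.02 and Prss29 read 212.25. On f/f 1 they read 2.46 and 2.75, close to the d/d arrays (1.82 to 2.12 and 2.38 to 2.74). Spink3 was listed as a gland marker but not measured. Smooth muscle markers had a median of -0.15 and 1 of 8 lower (Des, -0.64), with sums of 6268 to 7130 and 5777 to 6840. Hoxa10, Hoxa11, Hand2 and Acta2, picked from the stromal and smooth muscle lists as markers of uterine tissue, read 51.31 or more on every array, above the median of all intensities. This does not extend to the gland markers. The call of Dcn was lost without f/f 2 or d/d 2 and that of Cdh1 without f/f 2, while Wnt7a kept its call only without d/d 2 or d/d 3 and Des only without d/d 1. With averaged probe sets Wnt7a had 0.27 (adjusted p = 0.155) and Des -0.15 (adjusted p = 0.379). The lysosomal genes summed to 6043 to 6417 in f/f and 4660 to 5464 in d/d. How much of their change belongs to the change in any of these cell types was not tested.

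Macrophage markers stood apart on f/f 3. No marker of 15 passed the test (6 lower and 1 higher at an unadjusted limma p under 0.05, none by the methods' t-test after adjustment), the median was -0.35, and 10 of the 15 were highest on f/f 3, whose summed intensity was 1229, compared with 758 and 876 on the other f/f arrays and 643 to 825 on the d/d arrays. The lowest intensity on any array was 1.29, so a reading above 0 does not show that a marker was detected. Cd163 read 1.91 to 3.21, with a group mean below the median of all intensities. Fcer1g had -1.08 (adjusted p = 0.097) and Adgre1, which encodes F4/80, had -0.95 (adjusted p = 0.372), from 16.73, 18.79 and 78.36 in f/f and 16.57, 12.51 and 16.58 in d/d. The markers did not move as one: 12 of the 15 lay below 0 and 3 above. Cd68 was the marker higher at an unadjusted p, at 0.41 (adjusted p = 0.239, limma), from 7.91, 11.84 and 9.5 in f/f and 11.48, 15.37 and 11.84 in d/d. C1qb at 0.01 and Lyz2 at -0.06 lay near 0. Ctss and Ctsc, cathepsins abundant in leukocytes and chosen here after their values were seen, had the same array on top. Ctss read 112.94, 162.61 and 252.7 in f/f and 149.2, 131.86 and 179.57 in d/d (95% interval of the log2 fold change -0.72 to 0.46), and Ctsc read 91.17, 95.39 and 148.85 against 109.07, 108.66 and 107.65 (-0.41 to 0.39). Of the 7 lower genes, Lgmn, Scarb2 and Psap were also highest on f/f 3, while Lipa, Arsa, Gm2a and Smpd1 were highest on another f/f array. Without f/f 3, Lipa, Scarb2 and Lgmn still passed the test, and the median over the 37 genes lay within the range of -0.37 to -0.27 found when any array was left out.

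**Figure D4:**
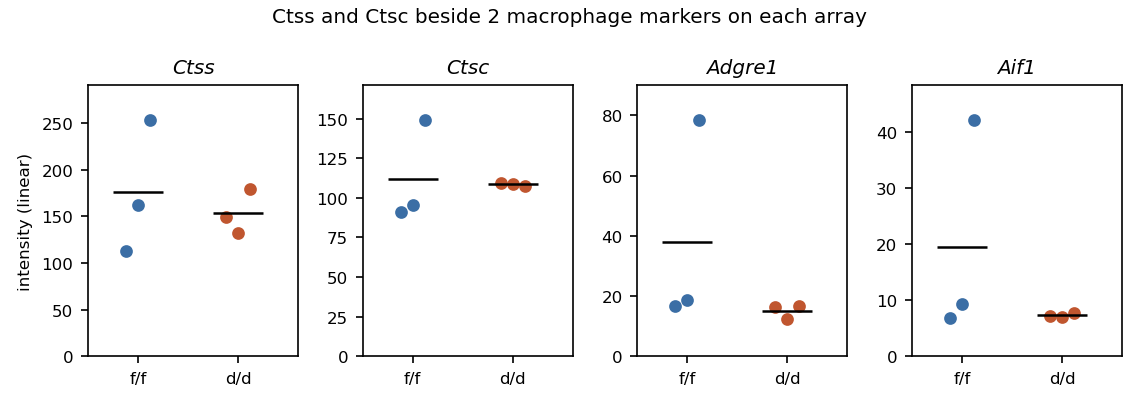
Linear intensity (y axis, starting at 0) on each of the 3 Arid1a f/f arrays (blue) and 3 Arid1a d/d arrays (orange) for Ctss, Ctsc and the macrophage markers Adgre1 and Aif1; lines are means. In each panel f/f 3 is the highest point, at 252.7, 148.85, 78.36 and 42.05. Of the 15 macrophage markers, 10 were highest on f/f 3.

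The arrays of each genotype were compared over all 37 genes by the median deviation of their log2 values from the 6-array mean. It was 0.131, 0.116 and 0.211 on the f/f arrays and -0.081, -0.27 and -0.086 on the d/d arrays, so that every f/f array lay above every d/d array, and d/d 2 was the lowest. The array d/d 2 had the lowest value in 19 of the 37 genes, and f/f 3 the highest in 15. On d/d 2 the epithelial markers stood at 0.747 and the stromal markers at -0.401. Lipid genes kept the narrowest spread within genotypes, from 0.199 to 0.245 in f/f and from -0.249 to -0.192 in d/d, and sulfatases the widest in d/d, from -0.495 to 0.004. The share of these array differences that belongs to cell composition was not tested.

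**Figure D5:**
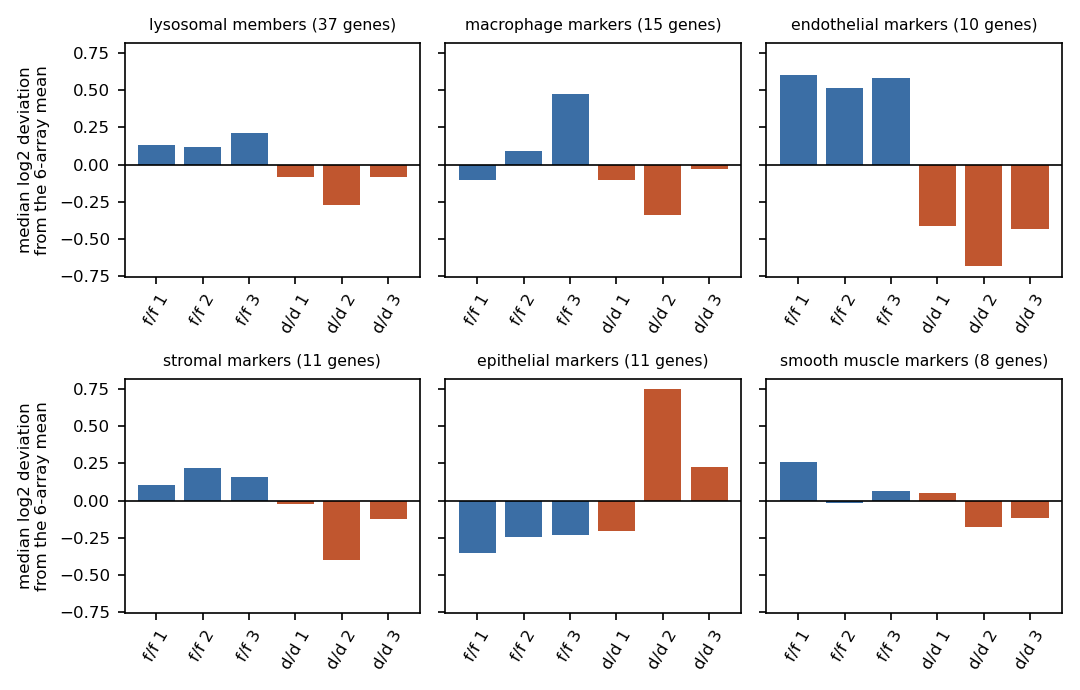
Median log2 deviation from the 6-array mean (y axis) on each array (x axis) for the 37 lysosomal genes and 5 lists of cell type markers; blue bars are Arid1a f/f and orange bars Arid1a d/d. The lysosomal genes lie above 0 on the 3 f/f arrays and below 0 on the 3 d/d arrays, as do the endothelial and stromal markers, while epithelial markers are highest on d/d 2.

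The probe sets of a gene did not always point one way. The 37 genes had 82 probe sets, of which 62 had a log2 fold change below 0 and 8 passed the test, each of them lower. Of the 25 genes with several probe sets, 16 had all of them on the same side of 0 and 9 did not. In Arsb, Ctsa, Gla, Ids, Neu1 and Sgsh, probe sets opposite in sign to the brightest had a group mean below 3.12, the median of all intensities. In Ctsb, Lamp2 and Ppt1 the probe set opposite in sign lay above that median, with f/f means of 42.4, 52.8 and 19.2. Each was still dimmer than the probe set read for its gene. Averaging the probe sets of each gene moved the median over the 37 genes to -0.21. It again gave 7 lower genes, with Glb1 and Hexa in place of Gm2a and Smpd1. Glb1 and Hexa have 1 probe set each, so their calls came from the changed test and not from other probe sets.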

How the data were processed

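Whole uteri at 3.5 dpc were measured on Affymetrix arrays, 3 for each genotype. The deposited intensities were computed by the authors with RMA, whose version is not stated in the paper or labels, followed by global scaling. The deposited intensities are linear, although log values had been foreseen, so log2 was taken before any test, and how they were rescaled from the trimmed mean that the methods set is not given there. The table holds 45037 probe sets without detection calls. By the platform annotation 34945 name 1 gene, 932 several and 9160 are unnamed here. No probe set naming Cd63 alone was found.

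Arid1a d/d was compared with Arid1a f/f in limma 3.58.1 (R 4.3.3). A linear model with moderated variances gave two-sided p-values, adjusted by Benjamini-Hochberg over the whole table, and the procedure was checked on simulated data. Each gene was read from its brightest probe set by the mean over 6 arrays. Intensities of different probe sets are not on a common scale, so a summed intensity is led by its brightest members. The precision is limited by 3 arrays per genotype. The members and lists were chosen with earlier results of these data known. The text names every member, and, in the other lists, up to 4 genes past the test by size of change, or the 2 with the largest change where none passed. Aif1, Cd163, Cd68, C1qb, Lyz2, Prss28, Prss29, Spink3 and the uterine markers Hoxa10, Hoxa11, Hand2 and Acta2 are named outside this rule. The result was recomputed with a replicate block, after quantile normalization or median centring, without the dimmest 25% of probe sets, with a variance trend and robust fit, by the methods' t-test (Student, equal variance), with the probe sets of a gene averaged, without probe sets of the kind that may match more than 1 transcript, and without each array. Promoter windows are those of RefSeq on GRCm38.p6.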

Additional observations from a re-analysis of the deposited data

How the results depend on the processing

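No called gene changed sign under the alternatives tried. The number of lower genes, 7 in the report, was 4 with the replicate block, 6 after median centring, 7 without the dimmest probe sets, 7 with averaged probe sets (5 of them among the 7 above), 9 after quantile normalization and with the trend and robust model, 4 of 30 measured without probe sets that may match more than 1 transcript (Psap and Smpd1 then had none), and 0 by the methods' t-test after adjustment (16 lower and 2 higher before it). Leaving out an array gave 2 to 6. No gene was higher except 1, Ctsb, with the trend and robust model. The median over the genes was -0.21 with averaged probe sets and -0.37 to -0.27 without an array. By the methods' t-test over all 18193 genes, 1933 were lower and 1731 higher before adjustment, and 0 and 0 after it. Over all genes and unnamed sequences, the probe sets called higher numbered 1090 and the probe sets called lower 1057. The methods' t-test gave 0 and 0, leaving out those that may match more than 1 transcript gave 587 and 726, and leaving out an array gave 241 to 941 and 337 to 878. The mean of probe sets counts genes and gives no such number.

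Whether the replicate numbers pair the samples is not known. The correlations of same-numbered deviations were -0.00364, 0.0467 and 0.143, and not every sample correlated best with its own number. The value of 0.143, for f/f 3 with d/d 3, was the highest of all pairs. With 3 arrays per genotype, these correlations cannot settle the question. With the replicate block the probe sets called higher were 1126 and the probe sets called lower 1039, and Arsa, Psap and Smpd1 lost their calls. The 3 autophagy calls were 0 with the block and 1 without probe sets that may match more than 1 transcript. No detection calls were used, so a bound for dim probe sets such as those of Gla could not be set.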
